A study of Mus musculus with 123 samples.

Results

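Pulmonary surfactant genes were followed in whole mouse lung through an ovalbumin (OVA) allergy time course. The set holds 8 genes that alveolar type II cells, the surfactant-making cells of the alveolus, are known for: Sftpa1, Sftpb, Sftpc, Sftpd, Abca3, Lamp3, Lpcat1 and Napsa. They were listed by name, but the list was chosen with earlier results of these data known. A gene was taken as measured where the platform annotation gave a probe set its symbol alone. By that rule 7 of the 8 genes, with 12 probe sets in all, were measured among 13053 genes, and Lamp3 was not analysed here. Where a gene had several probe sets, the one with the highest mean over all arrays stood for it.

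The data are whole lungs of BALB/c mice, with 1 Affymetrix array per mouse. The sensitized arm, 62 mice sensitized to OVA, was set against the naive arm, 61 mice, at 0, 2, 6, 24, 48, 72, 96 and 168 h after challenge. The groups held 8 mice each, except sensitized mice at 24 h (6 mice) and naive mice at 2, 48 and 96 h (7 mice each). The design text has both arms challenged with OVA, while the titles of naive samples carry the letters PBS, so what the naive mice received is not settled by the labels. The labels state neither age nor sex, and say nothing of the sensitization schedule or of how the 0 h mice were handled. Each array has its own animal number, so the replicates are separate animals. In whole lung RNA, fewer cells of a type and less RNA per cell cannot be told apart.

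Surfactant is a film of phospholipid and protein that lowers surface tension in the alveolus. Type II cells make the lipid, load it into lamellar bodies and secrete it together with the small hydrophobic proteins SP-B and SP-C, which help the film to spread. SP-A and SP-D, the lung collectins, are soluble lectins that bind microbes and allergens. SP-A and SP-D are also made by airway secretory cells, and both surfactant lipid and protein are taken up again by type II cells and alveolar macrophages.

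Of the 7 genes, 4 (Sftpa1, Sftpb, Abca3, Lpcat1) had a start site in the RefSeq promoter table (build GRCm38.p6), and the 250 bases before each were searched on both strands for short motifs of factors known to act on surfactant genes. The motifs were CTCAAG for NKX2-1, TGTTTAC and TGTTTGC for FOXA proteins, TTGCNNAA for C/EBP proteins and TTC, any 4 bases, then GAA for STAT6, a factor downstream of interleukin signals in allergy. Both windows with a match are shown, 5′ to 3′, because their genes differ in direction below; capitals mark the matches.
Sftpb: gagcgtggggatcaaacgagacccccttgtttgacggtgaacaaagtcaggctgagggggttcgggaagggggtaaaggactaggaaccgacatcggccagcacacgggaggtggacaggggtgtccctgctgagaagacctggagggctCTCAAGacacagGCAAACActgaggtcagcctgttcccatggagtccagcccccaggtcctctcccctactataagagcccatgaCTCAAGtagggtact
Sftpa1: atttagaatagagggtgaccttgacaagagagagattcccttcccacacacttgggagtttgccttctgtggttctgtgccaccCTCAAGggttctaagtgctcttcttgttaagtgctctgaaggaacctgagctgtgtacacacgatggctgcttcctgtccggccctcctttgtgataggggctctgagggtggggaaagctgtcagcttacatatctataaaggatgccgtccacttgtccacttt
The Sftpb window lies at chr6:72304360-72304609 and the Sftpa1 window at chr14:41131538-41131787, both on the plus strand. CTCAAG stood at -100 to -95 and -15 to -10 before the Sftpb start, and TGTTTGC stood on its other strand (capitals GCAAACA) at -88 to -82. In the Sftpa1 window CTCAAG stood at -166 to -161. Neither window, nor those of Abca3 and Lpcat1, held the STAT6 letters. The Abca3 window ends at a transcript start that lies inside the gene as annotated, so part of that window is within the gene. Among 32851 promoter windows of the same length, 13.3% held CTCAAG, 3.17% TGTTTAC, 4.3% TGTTTGC, 9.56% TTGCNNAA and 5.85% the STAT6 letters. A match is a string of letters, not a bound site.

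The 7 genes did not move as one. Sftpd was higher in sensitized lungs at all 8 times, Sftpa1 at 4 of them, and Sftpb, Abca3, Lpcat1, Napsa and Sftpc were lower at some times, mostly between 6 and 96 h. For the probe sets that stood for the genes all of these differences were small, the widest being -0.37, or 0.77-fold (Sftpb and Abca3 at 6 h). Dimmer probe sets of the same genes reached -0.60 (Abca3 at 6 h) and -0.57 (Napsa at 48 h). Differences are sensitized minus naive log2 values from limma, with 1 mean per group and a spread shared by all 16 groups, given ± SE, and a gene passed the test at a Benjamini-Hochberg adjusted p under 0.05 over all 13053 genes.

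Set against all genes, the counts were as follows. At 0 h, 3 of the 7 genes passed (2 higher, 1 lower), beside 26.5% of all genes (14.2% higher, 12.3% lower). At 2 h, 1 passed, higher, beside 3.76% (1.84% higher). At 6 h, 6 passed, 1 higher and 5 lower, beside 57.8% of all genes, of which 24.6% were higher and 33.2% lower. That time had the most passing members, and it also had the highest share over all genes. At 24, 48 and 72 h, 5 genes passed each time, 2 higher and 3 lower, beside 47.7% of all genes (22.8% higher, 24.9% lower), 35.1% (17.0% higher, 18.1% lower) and 48.5% (22.2% higher, 26.3% lower). At 96 h, 4 passed, 1 higher and 3 lower, beside 42.0% (21.2% higher, 20.8% lower). At 168 h, 1 passed, higher, beside 4.81% (3.4% higher). At 2 and 168 h a single gene, Sftpd, made the count, and 7 genes are too few for these shares to set them apart from all genes. The median difference of the 7 genes was -0.16 at 6 h, beside -0.04 for all genes, and lay between -0.10 and 0.02 at the other times, beside -0.02 to 0.01 for all genes.

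**Figure D1:**
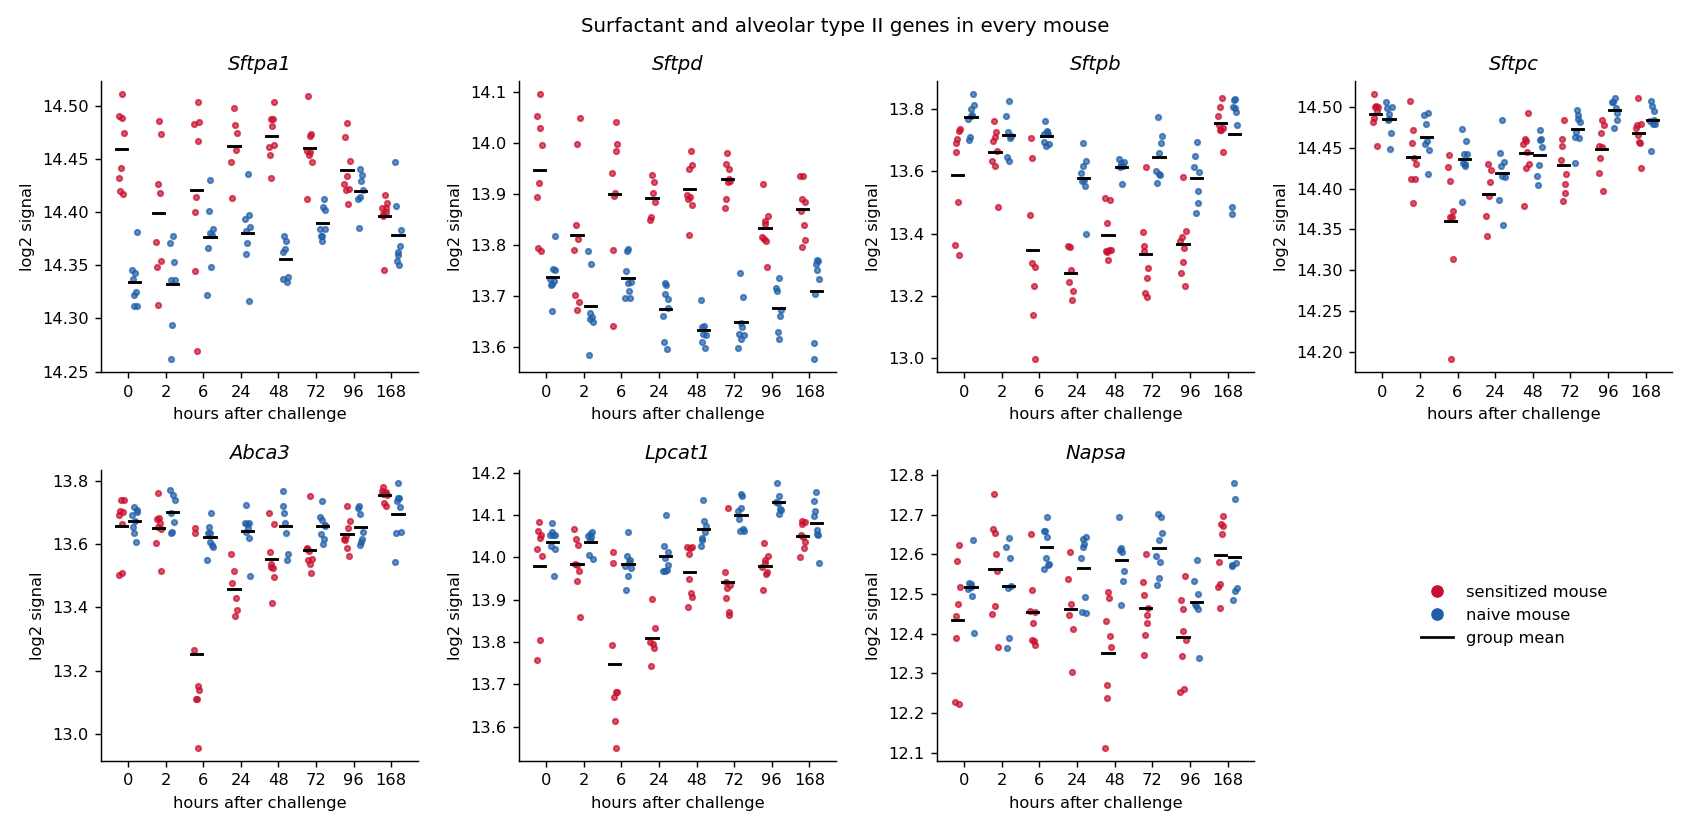
Log2 signal (vertical axes, different in each panel) of the 7 measured genes in every mouse by hours after challenge, sensitized mice left of naive mice at each time, with a line at each group mean. Sftpd was higher in sensitized lungs at all 8 times, and at 6 h the sensitized mice spread widely for Sftpb, Abca3 and Lpcat1.

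Sftpd, which encodes the collectin SP-D, showed the most lasting difference of the set. At 72 h the lowest, median and highest values were 13.87, 13.93 and 13.98 in sensitized mice, against 13.60, 13.63 and 13.75 in naive mice. The groups did not overlap: every sensitized mouse lay above every naive one. The difference was 0.28 ± 0.04 (1.21-fold, adjusted p = 5.13e-10). At 48 h the values were 13.82, 13.90 and 13.98 in sensitized mice, against 13.60, 13.63 and 13.69 in naive mice, again without overlap (0.28 ± 0.04, adjusted p = 5.96e-09). Here and below, statements of overlap describe the mice only, because the share of all genes without overlap is not given.

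Sftpd was already higher at 0 h. The lowest, median and highest values were 13.79, 13.96 and 14.10 in sensitized mice, against 13.67, 13.73 and 13.82 in naive mice, so that 6 of 8 sensitized mice exceeded all naive ones. The difference at 0 h was 0.21 ± 0.04 (adjusted p = 1.16e-05). It was 0.14 at 2 h (adjusted p = 0.0231), 0.16 at 6 h (8.42e-05), 0.22 at 24 h (3.27e-06), 0.16 at 96 h (0.000565) and 0.16 at 168 h (0.00312), each ± 0.04. All sensitized mice exceeded all naive mice at 24, 48, 72, 96 and 168 h. At 2 h sensitized mice ran from 13.67 to 14.05 and naive mice from 13.59 to 13.79, and the call was lost without the 7 arrays that stand apart (adjusted p = 0.0748). The 168 h call was lost without replicate 1 of each group (adjusted p = 0.055). The F test for a change of the difference over time did not pass for Sftpd (adjusted p = 0.0706), which does not show that the difference was constant.

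Sftpa1 encodes SP-A, the other lung collectin, and its gene lies close to Sftpd in the genome. At 0 h its lowest, median and highest values were 14.42, 14.46 and 14.51 in sensitized mice, against 14.31, 14.33 and 14.38 in naive mice. The groups did not overlap, although the difference was only 0.12 ± 0.02 (1.09-fold, adjusted p = 2.49e-06). At 48 h the values were 14.43, 14.47 and 14.50 in sensitized mice, against 14.33, 14.36 and 14.38 in naive mice, also without overlap (0.12 ± 0.02, adjusted p = 7.65e-06). Sftpa1 was higher at 24 h (0.08 ± 0.02, adjusted p = 0.0013) and 72 h (0.07 ± 0.02, adjusted p = 0.00272), and both calls were lost when each array was centred on its median (adjusted p = 0.122 and 0.224). It did not pass at 2 h (adjusted p = 0.0594), 6 h (0.0542), 96 h (0.474) or 168 h (0.701). At 6 h, however, it passed as higher under 5 of 18 alternatives, and quantile normalization gave 0.102 (adjusted p = 3.22e-05), against 0.045 as deposited. It also passed under 1 alternative each at 2 h (0.066) and 96 h (0.078, with all probe sets averaged).

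A second Sftpa1 probe set, which did not stand for the gene, also had higher means in sensitized mice at all 8 times, and its differences were wider than those of the first at every time but 2 h. At 48 h it was 0.37 ± 0.05 higher (1.29-fold, adjusted p = 5.56e-09 over all 25687 probe sets, of which 33.2% passed), with all 8 sensitized mice above all naive mice. It passed at 0 h (0.24, beside 23.9% of all probe sets), 24 h (0.19), 72 h (0.29) and 96 h (0.14), and not at 2 h (0.06), 6 h (0.06) or 168 h (0.10). The probe set that stood for Sftpa1 spanned only 0.25 log2 units over all arrays of both arms (14.26 to 14.51), and the second 0.75 units.

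**Figure D2:**
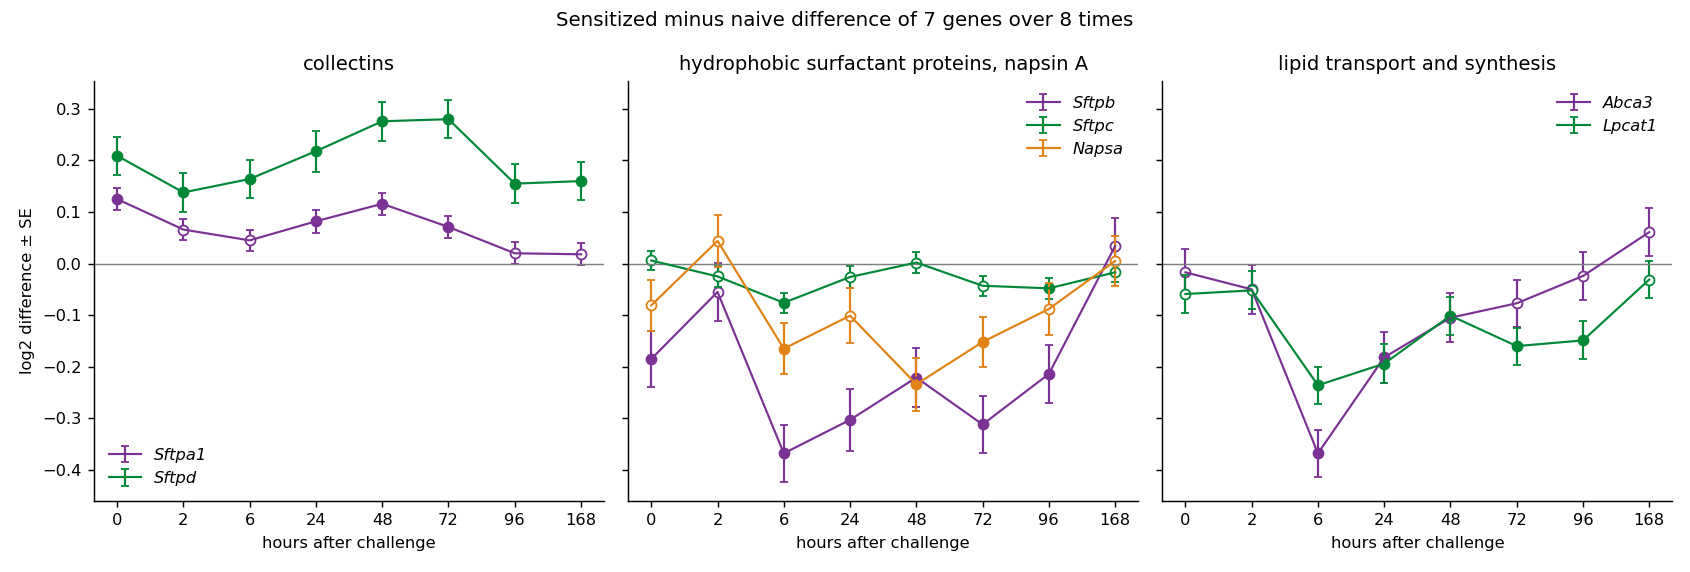
Sensitized minus naive log2 difference ± SE (vertical axis) by hours after challenge for the 7 genes, filled points where the adjusted p was under 0.05 and open points elsewhere. Sftpd stayed above 0 at all 8 times and Sftpb was at its lowest at 6 h (-0.37).

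Sftpb encodes SP-B, without which lamellar bodies and surfactant films do not form properly. It was lower in sensitized lungs at 6 of 8 times. At 6 h the lowest, median and highest values were 12.998, 13.30 and 13.71 in sensitized mice, against 13.68, 13.72 and 13.76 in naive mice. The groups met only through the highest sensitized mouse, and 7 of 8 sensitized mice lay below all naive ones. The difference was -0.37 ± 0.06 (0.77-fold, adjusted p = 1.39e-08).

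The lower Sftpb values lasted to 96 h. At 24 h they were 13.19, 13.26 and 13.36 (lowest, median, highest) in sensitized mice, against 13.40, 13.58 and 13.69 in naive mice, without overlap (-0.30 ± 0.06, adjusted p = 1.35e-05). At 72 h they were 13.20, 13.32 and 13.61 in sensitized mice, against 13.56, 13.63 and 13.77 in naive mice (-0.31 ± 0.06, adjusted p = 1.47e-06). Here 1 sensitized mouse reached into the naive range. The difference was -0.22 at 48 h (adjusted p = 0.00149) and -0.21 at 96 h (0.0015), each ± 0.06. At 168 h Sftpb values ran from 13.66 to 13.84 in sensitized mice and from 13.46 to 13.83 in naive mice, and the difference did not pass (0.03 ± 0.06, adjusted p = 0.804).

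Sftpb was already lower at 0 h. At 0 h the values were 13.33, 13.68 and 13.74 in sensitized mice, against 13.70, 13.78 and 13.85 in naive mice (-0.19 ± 0.06, adjusted p = 0.00912). Sensitized mice 1 and 6 were lowest (13.37 and 13.33). Without replicate 1 of each group the adjusted p was 0.0663, and without replicate 6 it was 0.102. The same mice were lowest for Abca3 (13.50 and 13.51), Lpcat1 (13.76 and 13.80) and Napsa (12.23 and 12.22) among the 8 sensitized mice at 0 h. They were highest for Sftpd (14.05 and 14.10). For Sftpa1 they were at 14.49 and 14.51, with mouse 5 also at 14.49. They also had the highest mean log2 level of 10 goblet cell and mucus markers (11.92 and 12.05), whose range over the other sensitized mice was 10.62 to 11.15. The part of these markers in the result was not tested.

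Sftpc encodes SP-C, whose gene is the classical marker of type II cells. Its probe set spanned 0.32 log2 units over all arrays of both arms, from 14.19 to 14.52. Only small differences were seen. At 6 h values ran from 14.19 to 14.44 (median 14.37) in sensitized mice, against 14.38 to 14.47 (median 14.44) in naive mice, with 5 of 8 sensitized mice below all naive ones (-0.08 ± 0.02, 0.95-fold, adjusted p = 0.000429). The 6 h call was lost when only the 2 groups compared were fitted (adjusted p = 0.0883). At 96 h Sftpc was -0.05 ± 0.02 lower at an adjusted p of 0.0435, which did not hold under 9 of 18 alternatives. At 0, 2, 24, 48, 72 and 168 h it did not pass, with differences from -0.04 to 0.01. At 72 h it passed as lower under 7 of 18 alternatives, with differences from -0.077 to -0.041, against -0.043 as reported (adjusted p = 0.0519). Quantile normalization gave -0.059 at 24 h (adjusted p = 0.000599), against -0.026, and turned the 48 h difference to -0.039 (adjusted p = 0.0231).

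The probe sets of Sftpa1 and Sftpc belong to the brightest on the array. The 31 genes with a mean above 14 had a median within-group SD of 0.043 in naive mice, against 0.065 for the 456 genes above 13 and 0.131 for all genes. The highest value of the whole table was 15.43. Whether such bright probe sets report the full size of a change in RNA was not tested, so the small differences of Sftpc and Sftpa1 are given as signal differences only.

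Abca3 encodes the transporter that moves phospholipid into lamellar bodies, and at 6 h its difference was as wide as that of Sftpb. The lowest, median and highest values were 12.96, 13.14 and 13.65 in sensitized mice, against 13.55, 13.62 and 13.70 in naive mice. The groups overlapped only through 2 sensitized mice, and 6 of 8 lay below all naive mice. The difference was -0.37 ± 0.05 (0.77-fold, adjusted p = 3.62e-11). At 24 h it was -0.18 ± 0.05 (adjusted p = 0.00143), with 13.37, 13.45 and 13.57 in sensitized mice against 13.50, 13.66 and 13.72 in naive mice.

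At the other 6 times Abca3 did not pass, with differences between -0.10 (48 h, adjusted p = 0.0752) and 0.06 (168 h, adjusted p = 0.498). It passed as lower under 5 of 18 alternatives at 48 h (-0.205 to -0.092) and under 2 at 72 h (-0.11 and -0.097). The Abca3 difference itself changed by -0.35 ± 0.06 between 0 h and 6 h (adjusted p = 2.9e-05). In this contrast 24.6% of all genes passed, 14.6% downward, and 4 of the 7 members did, all downward: Abca3, Lpcat1 (-0.18, adjusted p = 0.00569), Sftpc (-0.08, adjusted p = 0.0185) and Sftpa1 (-0.08, adjusted p = 0.0327).

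Lpcat1 encodes lysophosphatidylcholine acyltransferase, which remodels the main surfactant lipid. It was lower from 6 to 96 h. At 6 h the values were 13.55, 13.68 and 14.01 (lowest, median, highest) in sensitized mice, against 13.92, 13.99 and 14.06 in naive mice (-0.24 ± 0.04, 0.85-fold, adjusted p = 1.55e-08). Again 6 of 8 sensitized mice lay below all naive mice. At 24 h they were 13.74, 13.80 and 13.90 in sensitized mice, against 13.97, 13.99 and 14.10 in naive mice, without overlap (-0.19 ± 0.04, adjusted p = 1.52e-05).

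The later Lpcat1 differences were smaller. They were -0.10 at 48 h (adjusted p = 0.0252), -0.16 at 72 h (0.000101) and -0.15 at 96 h (0.000598), each ± 0.04. At 96 h every sensitized mouse (13.92 to 14.03) lay below every naive mouse (14.10 to 14.18). The 48 h call was lost without replicate 2, 4, 6 or 8 of each group, at adjusted p from 0.0563 to 0.0649. At 0, 2 and 168 h Lpcat1 did not pass.

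At 6 h the same sensitized mice stood apart for the 3 genes with the clearest falls. Mice 2 and 3 had the highest Sftpb (13.71 and 13.64), Abca3 (13.65 and 13.63) and Lpcat1 (13.99 and 14.01), all at naive levels or close to them. The same mice had the highest Napsa (12.65 and 12.51) and the lowest Sftpd (13.79 and 13.64). For Sftpa1 and Sftpc they were not both at an extreme. They also had the lowest mean level of 10 mature and migratory dendritic cell markers (10.50 and 9.94, against 11.18 to 11.69 in the other 6 sensitized mice). Their mean goblet marker level was 9.999 and 8.73, against 10.57 to 11.41 in the other 6. They had the highest mean levels of type I cell and endothelial markers and the lowest of general leukocyte markers among these mice. Their 3′ minus 5′ actin signal, a measure of RNA quality described below, was 1.21 and 1.24, against 0.86 to 1.17 in the other 6. These mice were picked out after their values were seen, and no test was made of them.

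Napsa encodes napsin A, an aspartic protease that type II cells use to process the SP-B precursor. At 48 h its lowest, median and highest values were 12.11, 12.38 and 12.50 in sensitized mice, against 12.47, 12.61 and 12.70 in naive mice (-0.23 ± 0.05, 0.85-fold, adjusted p = 0.000167). Of the 8 sensitized mice 6 lay below all naive mice. Napsa was also lower at 6 h (-0.16 ± 0.05, adjusted p = 0.00281) and 72 h (-0.15 ± 0.05, adjusted p = 0.00767). It did not pass at 0, 2, 24, 96 or 168 h, where differences ran from -0.10 to 0.04. With all probe sets averaged the 6 h call was lost (-0.11, adjusted p = 0.148). Napsa passed as lower under 4 of 18 alternatives at 24 h (-0.26 to -0.11) and under 3 at 96 h (-0.138 to -0.119).

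Of the 5 probe sets that did not stand for their gene, all dimmer, 2 passed at 6 h (54.6% of all 25687 probe sets passed) and 5 at 24 h (46.3%). At 48 h 5 passed again (33.2%), then 4 at 72 h (46.9%) and 3 at 96 h (39.1%). For Abca3 the second probe set was -0.60 ± 0.11 at 6 h (0.66-fold, adjusted p = 1.6e-06), and it also passed at 24 h (-0.53) and 48 h (-0.31). The 2 other Lpcat1 probe sets were lowest at 24 h, not at 6 h, with -0.40 ± 0.07 (adjusted p = 2.98e-06) and -0.35 ± 0.07 (adjusted p = 9.29e-06), against -0.16 and -0.11 at 6 h. One of these carries the suffix that the maker gives to probes shared by several transcripts.

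Napsa's probe sets disagreed on the early time. The second was -0.05 ± 0.09 at 6 h (adjusted p = 0.643), where the first had passed, and was lower at 24 h (-0.42 ± 0.10, adjusted p = 0.000341), 48 h (-0.57 ± 0.10, 0.67-fold, adjusted p = 2.04e-06) and 72 h (-0.36 ± 0.09, adjusted p = 0.000889). All 8 sensitized mice lay below all naive mice for it at 48 h.

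**Figure D3:**
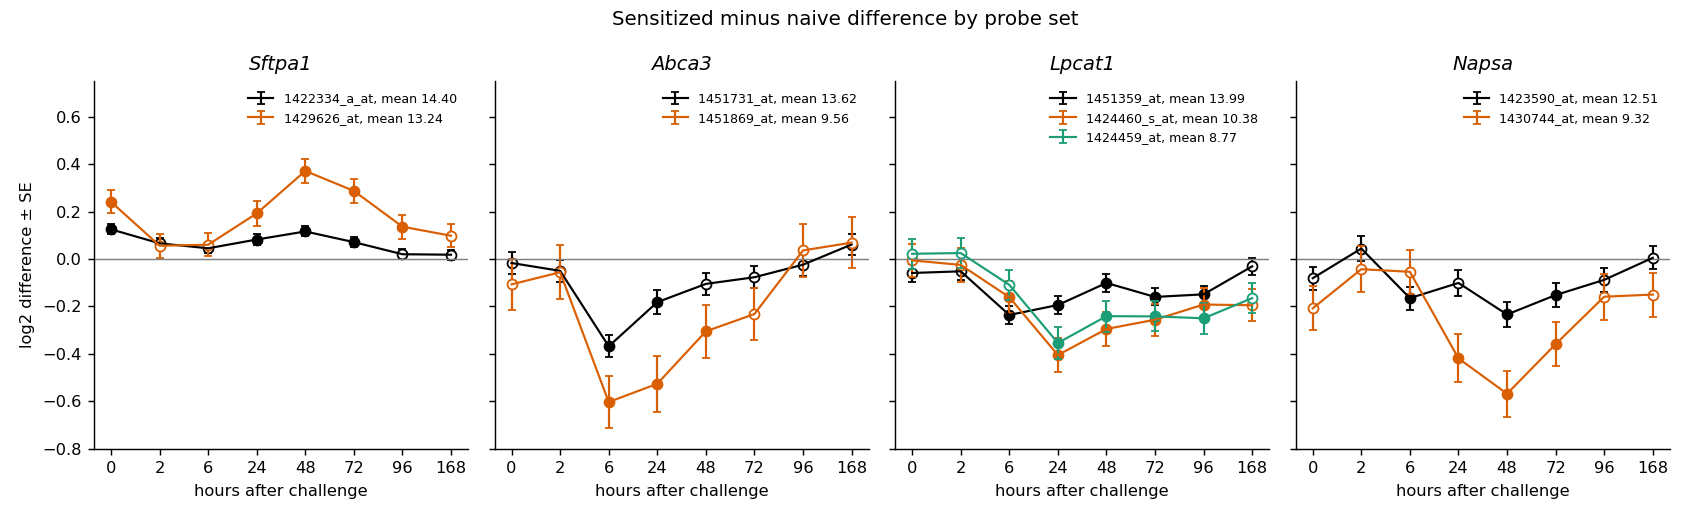
Sensitized minus naive log2 difference ± SE (vertical axis) by hours after challenge for each probe set of the 4 genes with more than 1, black for the one that stands for the gene, filled points where the adjusted p was under 0.05. The dimmer probe sets of Abca3 and Napsa reached -0.60 at 6 h and -0.57 at 48 h, with the same sign as the brighter ones.

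The moderated F test for a change of the sensitized minus naive difference over the 8 times passed for 5 of the 7 genes, beside 62.5% of all genes. These were Abca3 (adjusted p = 1.05e-06), Sftpb (5.71e-05), Lpcat1 (0.00144), Sftpa1 (0.00372) and Napsa (0.00926). It did not pass for Sftpd (0.0706) or Sftpc (0.0986). Within sensitized mice alone all 7 genes changed over time, beside 87.8% of all genes.

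In sensitized mice the lowest and highest means over time lay 13.28 (24 h) and 13.75 (168 h) for Sftpb, 13.25 (6 h) and 13.75 (168 h) for Abca3, and 13.75 (6 h) and 14.05 (168 h) for Lpcat1. Napsa was lowest at 48 h (12.35) and highest at 168 h (12.60). By the probe sets that stood for them, these 4 genes thus had their highest sensitized mean at the last time. The other probe sets of Abca3, Napsa and Lpcat1 did not. Their highest sensitized mean was at 96 h for Abca3 (9.81) and at 2 h for Napsa (9.48) and Lpcat1 (10.43 and 8.82). Sftpc had its highest at 0 h (14.49) and its lowest at 6 h (14.36), and Sftpd had its lowest at 2 h (13.82) and its highest at 0 h (13.95). The probe set that stood for Sftpa1 had its lowest sensitized mean at 168 h (14.40, the same as at 2 h after rounding) and its highest at 48 h (14.47). The second Sftpa1 probe set differed, with its lowest at 2 h (13.11) and its highest at 72 h (13.52).

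In naive mice the range of the 8 time means was smaller than in sensitized mice for 6 of the 7 genes, while for Sftpa1 it was 0.09 in naive mice, beside 0.08 in sensitized mice. Of the 7 genes, 4 passed the F test in naive mice, beside 38.4% of all genes. These were Sftpc (adjusted p = 0.00416), Sftpa1 (0.00689), Lpcat1 (0.00721) and Sftpb (0.0107). Abca3 (0.786), Napsa (0.124) and Sftpd (0.12) did not pass. For Abca3, the naive means over the 8 times lay between 13.62 and 13.70.

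Sftpb fell in naive mice too. At 24 h its lowest, median and highest values were 13.40, 13.58 and 13.69, against 13.70, 13.78 and 13.85 in naive mice at 0 h, without overlap (-0.20 ± 0.06, adjusted p = 0.00654). At this time 20.0% of all genes passed, and Sftpc was the other member that did (-0.07 ± 0.02, adjusted p = 0.0089). Sftpb was also below its 0 h level at 48 h (-0.16, adjusted p = 0.0472, beside 13.7% of all genes) and 96 h (-0.20, adjusted p = 0.0106, beside 17.3%). At 96 h naive Sftpa1 was higher than at 0 h (0.08 ± 0.02, adjusted p = 0.00255). By this limma test 0 members passed at 2, 6, 72 and 168 h, beside 2.91%, 9.2%, 9.65% and 0.391% of all genes, and all these contrasts share the naive 0 h group. At an unadjusted p under 0.05 the numbers were 0, 3, 4 and 1. The share of all genes at that looser threshold was not counted, so nothing is drawn from these numbers.

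A measure of RNA quality moved with some of these results. Signal of the 3′ actin control probe set minus that of the 5′ one, in log2 units, which grows as RNA is less intact, averaged 1.40 at 0 h, 1.10 at 24 h, 1.09 at 48 h and 1.21 at 168 h in naive mice. With it as a covariate, the naive time course passed for 2 genes in place of 4, beside 36.3% of all genes in place of 38.4%. The call was lost for Sftpb (adjusted p = 0.431) and Sftpa1 (0.0735). Between the arms the actin measure was lower in sensitized mice at 6 h (1.05, against 1.23 in naive mice, a difference of -0.18, adjusted p = 0.0224 by exact permutation test, two-sided). It was also lower at 24 h (-0.13, adjusted p = 0.0224) and higher at 168 h (0.29, adjusted p = 0.0319). With the covariate the differences at 6 h were -0.27 for Sftpb (adjusted p = 6.55e-07), -0.30 for Abca3 (1.68e-09) and -0.21 for Lpcat1 (4.45e-07).

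**Figure D4:**
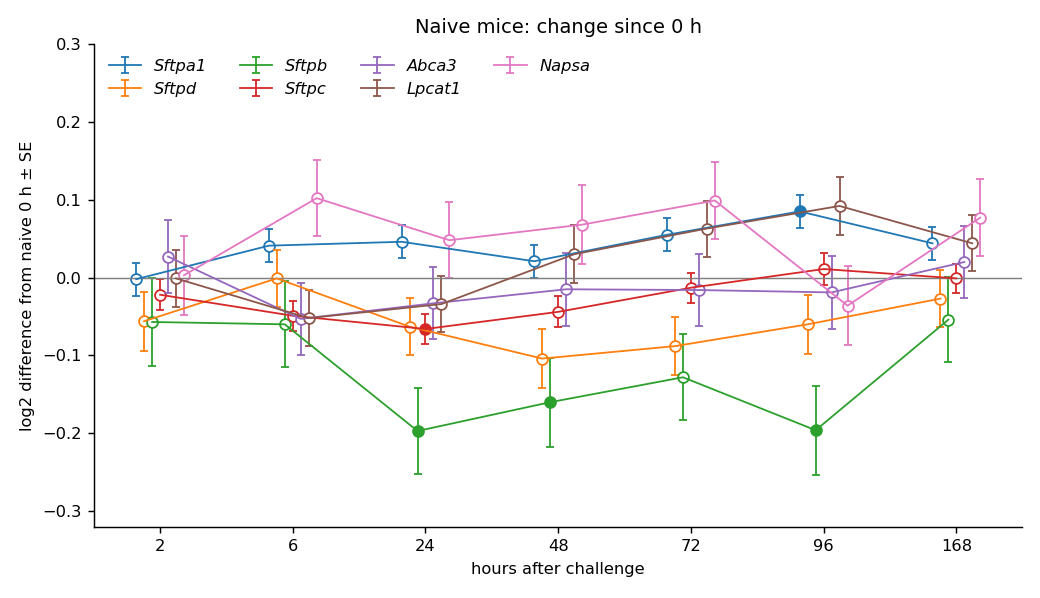
Log2 difference from naive mice at 0 h ± SE (vertical axis) by hours after challenge for the 7 genes in naive mice, filled points where the adjusted p was under 0.05. Sftpb was below its 0 h level at 24, 48 and 96 h, by 0.16 to 0.20.

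Markers of other tissues set 7 arrays apart, 6 with high squamous epithelium markers and 6 with high skeletal muscle markers, in naive mice at 0 h (2 mice), 2, 6 and 24 h and in sensitized mice at 6 and 48 h (1 each). Without them the number of members that passed was 3, 0, 6, 5, 5, 5, 4 and 1 from 0 to 168 h, and 4 in the naive course. The shares of all genes that passed were then 23.2%, 2.88%, 51.5%, 48.4%, 34.5%, 49.3%, 42.9% and 5.4%, and 37.2% in the naive course. At 6 h the differences without them were -0.32 for Sftpb and -0.34 for Abca3. Bright lung markers were present throughout, such as the type I cell gene Ager (mean 14.15 in sensitized and 14.29 in naive mice at 24 h) and the club cell gene Scgb1a1 (14.45 and 14.54 at 6 h).

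Other genes known from type II cells split in both directions. Of 16 measured, 5 were higher and 7 lower at 6 h, with a median of -0.07, beside 24.6% and 33.2% of all genes. The widest were Chia1, an acidic chitinase (1.30 ± 0.16, adjusted p = 3.12e-11), and Il33, an epithelial alarmin (1.28 ± 0.15, adjusted p = 1.16e-11), both higher. Lgi3 (-0.60 ± 0.09) and Rasgrf1 (-0.45 ± 0.14, adjusted p = 0.00547) were lower. At 48 h, 6 were higher and 3 lower (median 0.07, beside -0.02 for all genes), beside 17.0% and 18.1% of all genes. At 24, 72 and 96 h, 5 were higher and 4 lower each time, at 0 h 5 and 2, and at 2 and 168 h 3 and 0. Of all genes, 22.8%, 22.2% and 21.2% were higher and 24.9%, 26.3% and 20.8% lower at 24, 72 and 96 h. At 0 h 14.2% of all genes were higher and 12.3% lower, and at 2 and 168 h 1.84% and 3.4% were higher. The median of the list was above 0 at every time but 6 h, by at most 0.07. The mean level of the 16 genes was higher in sensitized mice at all 8 times, and without overlap at 48, 72 and 96 h. This mean includes the wide differences of Chia1 and Il33. At 6 h it was 12.14, against 12.08 in naive mice, although the median difference was -0.07 and more genes were lower than higher. At 48 h this mean was 12.28 (12.22 to 12.34) in sensitized mice, against 12.10 (12.04 to 12.12) in naive mice.

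Of 18 genes of phospholipid and fatty acid synthesis, 3 were higher and 8 lower at 6 h (median -0.13), beside 24.6% and 33.2% of all genes. Elovl6, a fatty acid elongase, was 1.57 ± 0.17 higher (adjusted p = 6.4e-13), as were Me1, malic enzyme (0.53), and Pgs1, of phosphatidylglycerol synthesis (0.51). Lpin1, a phosphatidate phosphatase, was lower (-0.65 ± 0.08, adjusted p = 7.02e-12). Chpt1, which makes phosphatidylcholine, was -0.38 and Pcyt1a, its rate-limiting enzyme upstream, -0.27, both passing. Fasn (0.03) and Scd1 (0.00) did not pass. At 96 h the list had 7 higher and 4 lower, beside 21.2% and 20.8% of all genes.

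Of 17 genes of surfactant protein processing, lamellar bodies and secretion, 3 were higher and 9 lower at 6 h (median -0.11). Of all genes, 24.6% were higher and 33.2% lower at that time. P2ry2, the purinergic receptor that triggers lamellar body release, was 1.46 ± 0.16 higher (adjusted p = 2.32e-13). Rab38, a small GTPase of lysosome-related organelles, was -0.58 ± 0.08 (adjusted p = 3.98e-09), Anxa7, an annexin of membrane fusion, 0.29 and Nedd4, a ubiquitin ligase, -0.26, all passing. Ctsh, a cathepsin that also processes SP-B and SP-C, did not pass (-0.05).

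Of 17 transcription factors of surfactant genes, 3 were higher and 9 lower at 6 h, and 1 higher and 10 lower at 24 h (median -0.20, beside -0.02 for all genes). Of all genes, 24.6% were higher and 33.2% lower at 6 h, and 22.8% and 24.9% at 24 h. Foxp2 (-0.73 ± 0.10, adjusted p = 1.14e-09), Nfia (-0.47), Nfib (-0.35) and Foxa1 (-0.35) were lower at 6 h. Cebpd (0.53 ± 0.18, adjusted p = 0.0101) and Stat3 (0.49 ± 0.06, adjusted p = 3.09e-11) were higher. Nkx2-1, the lung lineage factor whose motif letters stand in the windows shown above, did not pass (0.00 ± 0.05, adjusted p = 0.958).

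Of 14 genes of surfactant clearance by alveolar macrophages, 7 were higher and 1 lower at 24 h, beside 22.8% and 24.9% of all genes. Csf2rb (0.76 ± 0.15) and Csf2ra (0.53 ± 0.11), receptor chains for GM-CSF, the cytokine that macrophages need for clearance, were among the 7 higher. So were Csf2rb2 (0.88 ± 0.18), a related chain that is not part of the GM-CSF receptor, and Pla2g15, a lysosomal phospholipase (0.56). These receptor chains are also made by other myeloid cells. Of 10 other collectins and innate defence proteins of the lung, 7 were higher and 1 lower at 72 h, beside 22.2% and 26.3% of all genes. Bpifb1 was at 2.71, Pigr at 2.55, Slpi at 2.25 and Ltf at 1.37. All 4 are known from airway secretory epithelium or glands, and Ltf is also a neutrophil granule protein.

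**Figure D5:**
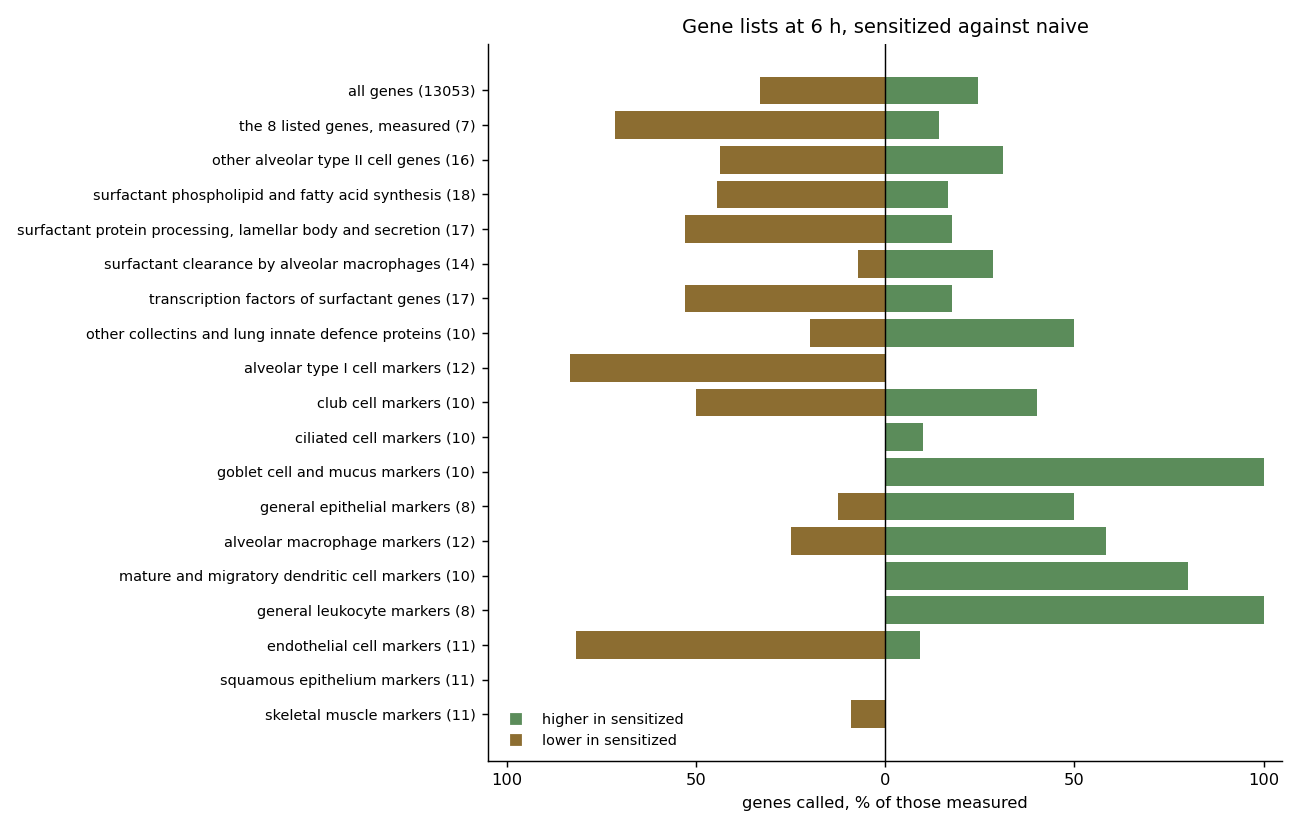
Share of measured genes that passed the test at 6 h, in percent, for all genes, the 7 measured members and 17 other lists (number measured in brackets), lower in sensitized lungs to the left and higher to the right. For the members 5 of 7 were lower, beside 33.2% of all genes, while all 8 leukocyte and all 10 goblet markers were higher, beside 24.6%.

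Markers of other cells also differed between the arms. Their counts stand beside 24.6% of all genes higher and 33.2% lower at 6 h. The shares were 22.8% and 24.9% at 24 h, and 22.2% and 26.3% at 72 h. At 6 h all 8 general leukocyte markers were higher, and their mean level ran from 12.37 to 13.01 in sensitized mice against 12.07 to 12.79 in naive mice. They were all higher at 24 and 72 h as well. At 6 h 10 of 12 type I cell markers were lower (mean level 12.60 to 13.04 in sensitized mice, 12.87 to 13.13 in naive mice), and at 24 h 11 were lower. Of 11 endothelial markers 9 were lower and 1, Cldn5, higher at 6 h. Lower values of some members thus came together with lower values of type I cell and endothelial markers and higher values of leukocyte markers. The general epithelial and airway lists, given next, were mixed or higher. The part of cell proportions in the members' results was not tested.

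The epithelial lists differed among themselves. The counts here stand beside 24.6% of all genes higher and 33.2% lower at 6 h, and 22.2% higher at 72 h. Of 8 general epithelial markers 4 were higher and 1 lower at 6 h (mean level 11.90 to 12.10 in sensitized mice, 11.77 to 11.87 in naive mice). All 10 goblet markers were higher at all times but 2 h, when 2 were. Of all genes, 1.84% were higher at 2 h and at most 24.6% at any time. Of 10 club cell markers 4 were higher and 5 lower at 6 h, Scgb3a2 and Cyp2f2 among the lower. Of 10 ciliated markers 9 were higher at 72 h and 1 at 6 h. Of 12 alveolar macrophage markers 7 were higher and 3 lower at 6 h, with Itgax at 1.22 and Cidec at -1.24. Of 10 dendritic cell markers 8 were higher at 6 h, led by Ccl22 (3.60) and Ccl17 (3.31). Of 11 squamous and 11 skeletal muscle markers, 1 and 5 were lower at 0 h, beside 12.3% of all genes. At that time 2 naive arrays stood apart.

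Over the 16 group means, which share the 2 arms and 8 times and are no independent points, Abca3 and Lpcat1 ran most alike (Pearson r = 0.88). Sftpc followed Lpcat1 (0.86) and Abca3 (0.83), and Sftpa1 followed Sftpd (0.78). Sftpa1 and Sftpb ran opposite ways (-0.79). Napsa was closest to Sftpb (0.73), and its r with Sftpc was 0.18.

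Among all other genes, the 3 whose group means ran most like each member, by Pearson r over the 16 groups, were as follows. For Sftpd they were Sec1, Plxnb2 and Slc5a1 (0.961 to 0.947), and for Sftpa1 Tox, Coro2a and Ear3 (0.932 to 0.906). For Sftpb they were Patj, Enpp6 and Terf2ip (0.973 to 0.964), and for Sftpc Pls3, Rbms3 and Sh3bgrl (0.969 to 0.956). For Abca3 they were Jade1, Tle2 and Pxmp4 (0.965 to 0.956), for Lpcat1 Atp1b2, Reps2 and Prrc2b (0.973 to 0.971), and for Napsa Creg1, Mtrex and Glb1l (0.896 to 0.877). The group means of these genes covered from 0.23 (Glb1l) to 3.69 (Slc5a1) log2 units.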

How the data were processed

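Lung RNA was measured on 1 Affymetrix 3′ expression array per mouse. The deposited values are log2 signals, made by the authors with RMA, per the submitters' processing notes, which give no version. Per the labels' protocols, RNA was taken with the mirVana kit, labelled with the 3′ IVT Express kit and had integrity numbers above 6. Array medians lay between 9.32 and 9.44. Precision is limited by the number of mice in a group. Control probe sets, 10 of 25697 in the table, were left out. By the platform annotation, 22478 of the rest carried 1 gene symbol, 259 several and 2950 none. The probe set with the highest mean stood for each of 13053 genes.

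limma 3.58.1 (R 4.3.3) was fitted with 1 mean per group over all 16 groups, with no filter, no block and a Benjamini-Hochberg threshold of 0.05 over all genes in each contrast. F tests covered the naive, sensitized and interaction courses. The shared spread means that an SE can understate that of a widely spread group such as sensitized mice at 6 h. Actin 3′ and 5′ values were compared by exact permutation tests, adjusted over the 8 times. The fit was tested on simulated data. These gave a gene the same spread in every group and held differences wider than those of the probe sets that stood for the members. The simulation therefore does not show how well differences of the members' size are found. Named were all members with all their probe sets, up to 4 genes per list with the widest difference at the time when most of it was called, other list genes beside their counts, and 3 genes most like each member. The members and lists were chosen with earlier results of these data known. Alternatives were array weights, quantile normalization, median centring, mean of all probe sets, all probe sets, no dim genes, trend and robust prior, actin covariate, 2 groups per fit, no arrays apart, and leaving out each replicate number.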

Additional observations from a re-analysis of the deposited data

Results flagged for a closer look

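In 8 of 112 groups of mice, 1 mouse lay far from the others for a member (Dixon's test at its 95% value). Chance flags about 1 in 20 groups. Naive mouse 8 at 24 h, whose array also had high squamous epithelium and skeletal muscle markers, was low for Sftpb (13.40, others 13.55 to 13.69) and Abca3 (13.50, others 13.62 to 13.72). Sensitized mouse 5 at 72 h was high for Abca3 (13.75, others 13.51 to 13.59) and Lpcat1 (14.12, others 13.86 to 13.97). Sensitized mouse 4 at 168 h was low for Sftpa1 (14.35). In naive mice, mouse 5 at 48 h was low for Sftpb (13.56), mouse 2 at 168 h was low for Sftpc (14.45) and mouse 5 at 24 h was high for Lpcat1 (14.10).

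The sensitized minus naive difference changed over the 8 times, by limma's interaction F test over all genes, for Abca3 (adjusted p = 1.05e-06), Sftpb (5.71e-05), Lpcat1 (0.00144), Sftpa1 (0.00372) and Napsa (0.00926), beside 62.5% of all genes.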

How the results depend on the processing

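Over 18 alternatives, 21 of the 30 member differences that had passed kept their call under all of them, and 9 lost it under at least 1. Of 1008 recomputed differences, 927 kept their direction and side of the threshold, 25 changed sign without passing on either side, 26 no longer passed, 29 newly passed and 1 reversed: Sftpc at 48 h was 0.00 and became -0.039 (adjusted p = 0.0231) with quantile normalization. With the actin covariate the 168 h differences of Sftpb (0.034) and Abca3 (0.061), neither passing, were -0.126 and -0.056. The count of members that passed at 2 h, 1, stood beside 3.76% of all genes. The count was 0 with array weights (10.6% of all genes), without the arrays that stand apart (2.88%) and with 2 groups per fit (2.93%). With the trend and robust prior the count was 2, beside 3.81% of all genes. Leaving out a replicate number, the 2 h count ran from 0 to 1, with 0 without replicate 5, 6 or 8. All genes then passed at 1.83%, 2.57% and 1.29%. The 168 h count ran from 0 to 1, with 0 without replicate 1, beside 1.88% of all genes. The naive course count, 4, was 2 with the actin covariate, beside 36.3% of all genes in place of 38.4%. The cause was not tested. The counts at 0, 6, 24, 48, 72 and 96 h and of the interaction stayed within 1.5 times under the 18 alternatives. The share of all genes moved as well, at 0 h from 9.41% (without replicate 6) to 33.4% (array weights). Leaving out any 1 mouse moved no difference that passed by over 1.5 times. Quantile normalization ended the naive course call of Sftpc (adjusted p = 0.896). No paired analysis was possible because replicate numbers follow the order of deposit and pair no mice. Bright probe sets and whole lung RNA limit what a small signal difference shows.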
